A study of Mus musculus with 2 samples.

Results

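Cycling Cd8-positive blasts are thymocytes that carry transcripts of the CD8 coreceptor and of the cell division machinery at the same time. They were taken as cell barcodes with at least 500 genes, at least 1000 unique molecular identifiers (UMIs, each standing for 1 captured transcript) and at most 10% of UMIs from mitochondrial genes, at least 2 UMIs of Cd8a plus Cd8b1, no Foxp3 UMI, and at least 4 UMIs of Rrm2, Top2a, Mki67 and Ube2c together. The rule found 493 blasts in the cKO library and 586 in the WT library, 1079 of the 14638 barcodes that passed the quality limits and of 16313 barcodes in all. The cKO mice carried the genotype written SETDBf/fCD4-Cre, in which Cre recombinase is driven by the Cd4 gene's regulatory sequence, and the WT mice are labelled only as WT; both were sampled as thymocytes enriched on anti-CD25 beads, with no age given. Which of Setdb1 and Setdb2 was floxed is not stated, and neither is the number of mice behind a library. Transcripts were captured by their 3′ ends (10x Genomics chemistry 3.1) in 1 library per genotype, so every difference below compares 2 libraries and no difference between genotypes could be tested. Intervals are exact 95% binomial or Poisson intervals and cover counting error only. Those on ratios of summed UMIs count each UMI as independent and leave out the spread between cells.

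In the thymus, a double-negative (DN) progenitor that has rearranged its T-cell receptor beta chain signals through the pre-TCR, divides, switches off CD25 (Il2ra) and begins to make CD8, which in the mouse appears before CD4. These dividing CD8-bearing cells are the immature single-positive (ISP) stage; with CD4 they become double-positive (DP) blasts, then stop dividing, turn the recombinase genes Rag1 and Rag2 up again and rearrange the alpha chain locus. A Cd4-driven Cre comes on around this stage. Whether it had acted in the blasts of the cKO library was not measured.

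The blasts were large, deeply read cells. Their median was 30253 UMIs and 4928 genes in the cKO library, against 32679 UMIs and 5112 genes in the WT library, with a median of 2.28% mitochondrial UMIs in cKO and 2.66% in WT blasts. Another 2 groups were set beside them: cycling cells without any Cd8 UMI (746 cKO cells with a median of 26063 UMIs and 929 WT cells with 26569) and resting Cd8-positive cells without any UMI of the 4 cycle genes (3089 cKO cells with a median of 2262 UMIs and 2069 WT cells with 2491). The 2 libraries shared 16 barcode sequences, carried by 1 cKO and 2 WT blasts. No doublet step was part of the rule; Scrublet called 27 cKO blasts (5.48%) and 33 WT blasts (5.63%) doublets at the WT library's threshold.

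The blasts carried the markers of their label. Cd8b1 was seen in 97.8% of blasts in each library and Cd8a in 75.5% of cKO and 75.1% of WT blasts, and Top2a, Rrm2 and Mki67 each in over 93% of them; these genes chose the cells, so their levels are a description only. A blast held a median of 11 Cd8 UMIs in the cKO library and 9 in the WT library, and a median of 53 UMIs of the 4 cycle genes in the cKO library and 51.5 in the WT library. Near the limits, 80 cKO and 76 WT blasts had exactly 2 Cd8 UMIs while 148 cKO and 166 WT cycling cells had exactly 1, and 14 cKO and 7 WT blasts had exactly 4 cycle-gene UMIs while 18 cKO and 22 WT Cd8-positive cells had exactly 3. In all, 134 cKO and 165 WT blasts held only 2 to 4 Cd8 UMIs. Whether these few UMIs are the cells' own RNA or stray RNA was not tested, so some may be neither ISP nor DP cells. A further 10 cells in each library met the Cd8 and cycle limits but held Foxp3 and were left out.

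Blasts made up 6.57% (6.02 to 7.16%) of passing cells in the cKO library and 8.21% (7.58 to 8.87%) in the WT library, a ratio of 0.800 (0.709 to 0.904). The lower share was not seen among cells with at least 3000 UMIs. That limit kept 492 of 493 cKO and 585 of 586 WT blasts, so it mainly changed the cells they were counted against. Among cells with at least 3000 UMIs the blasts were 10.9% of 4515 cKO cells and 11.1% of 5294 WT cells, a ratio of 0.986 (0.873 to 1.11), and with the rule applied after thinning those cells to 3000 UMIs the ratio was 1.13 as a mean of 5 draws. Of all cycling Foxp3-zero cells, 35.5% in the cKO library and 34.9% in the WT library were blasts. The bead enrichment for CD25 acts on these shares, so they are not the shares of a whole thymus.

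Cd4, the second coreceptor, was found in a minority of blasts and Rag1, a subunit of the V(D)J recombinase, in most. At full depth 176 of 493 cKO blasts (35.7%, 31.5 to 40.1%) and 160 of 586 WT blasts (27.3%, 23.7 to 31.1%) held a Cd4 UMI. Rag1 was detected in 78.1% of cKO and 77.1% of WT blasts. Both genes together were seen in 32.3% of cKO and 23.9% of WT blasts, Rag1 without Cd4 in 45.8% of cKO and 53.2% of WT blasts, and neither gene in 18.5% of cKO and 19.5% of WT blasts. Cycling cells without Cd8 were set beside the blasts at similar depth: 2.95% of cKO and 2.05% of WT cells there held a Cd4 UMI. Rag1, which DN cells also transcribe, was in 34.0% of cKO and 36.6% of WT cells there. The shares of blasts with either gene lay above these levels in both libraries. Cells without Cd8 were picked for having no Cd8 UMI, and stray RNA of DP cells would carry Cd8 along with Cd4. Their Cd4 share is therefore no upper limit for stray Cd4 RNA in blasts, which was not measured.

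At a common depth of 5000 UMIs per cell, averaged over all possible draws, Cd4 was found in 15.7% of 491 cKO blasts and 11.4% of 585 WT blasts, a ratio of 1.38 (0.974 to 1.93); 2 cKO blasts and 1 WT blast were too shallow to count. Rag1 at that depth was in 39.4% of cKO and 37.6% of WT blasts, a ratio of 1.05 (0.857 to 1.27). Trac, the constant segment of the alpha chain, was in 22.2% of cKO and 15.1% of WT blasts, a ratio of 1.47 (1.10 to 1.98). Rag2, the other recombinase subunit, ran the other way with 7.97% of cKO and 10.8% of WT blasts, a ratio of 0.740 (0.482 to 1.12). Ptcra, which encodes the pre-TCR alpha chain, was in 32.0% of cKO and 35.8% of WT blasts. Of these 5 genes Trac alone had a ratio interval that excluded 1.

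**Figure D1:**
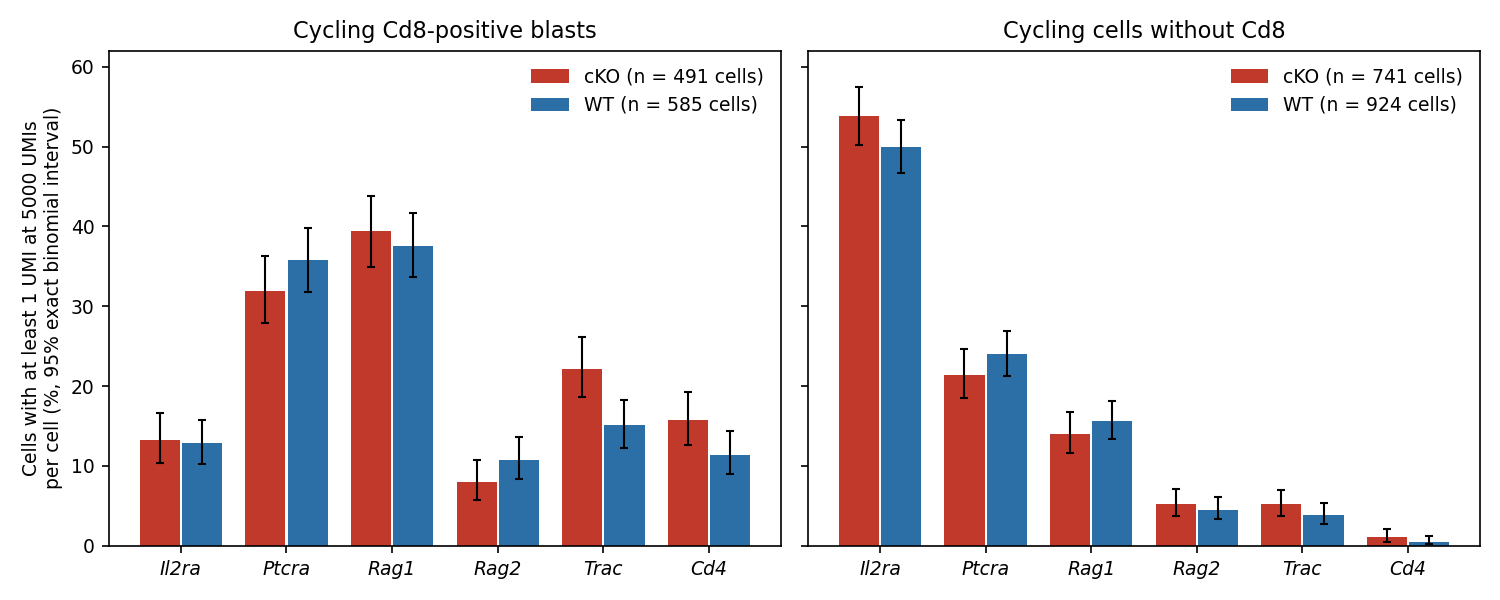
Share of cells with at least 1 UMI of each stage gene at a common depth of 5000 UMIs per cell, in blasts (left) and cycling cells without Cd8 (right). Red bars are the cKO library, blue bars the WT library, and black lines exact 95% binomial intervals. Il2ra was seen in 13.2% of cKO and 12.8% of WT blasts, against 53.8% of cKO and 49.96% of WT cells without Cd8, while Cd4, Rag1 and Trac show the opposite order.

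Summed over cells, levels are given as CPM, a gene's UMIs per 1000000 UMIs of the same cells. Cd4 stood at 26.2 CPM in cKO blasts against 16.6 CPM in WT blasts, a ratio of 1.57 (1.36 to 1.83). Trac stood at 52.3 CPM in cKO and 36.6 CPM in WT blasts, a ratio of 1.43 (1.29 to 1.58). Rag2 stood at 14.4 CPM in cKO and 20.9 CPM in WT blasts, a ratio of 0.692 (0.586 to 0.817), whereas Rag1 was close to even at 108 CPM in cKO and 103 CPM in WT blasts, a ratio of 1.05 (0.984 to 1.12). None of these 4 genes was past 1.5-fold on the scale used for all genes below, where 5 CPM is added to both levels.

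Stage genes followed the amount of Cd8 in a graded way in both libraries. All cycling Foxp3-zero cells were split by their Cd8 UMIs into bands of 0, 1, 2 to 4, 5 to 19 and 20 or more, a split chosen after the data had been seen; the last 3 bands are the blasts, with 134, 212 and 147 cKO cells and 165, 251 and 170 WT cells. Cd4 was 3.93, 18.2 and 74.6 CPM in the 3 cKO bands and 2.68, 9.49 and 48.8 CPM in the WT bands. Cycling cells with exactly 1 Cd8 UMI had 3.12 CPM of Cd4 in the cKO library, below the lowest band of blasts, and 2.93 CPM in the WT library, above it. Trac was 26.1, 49.3 and 96.0 CPM in the cKO bands and 13.8, 33.1 and 73.4 CPM in the WT bands. Il2ra ran downwards, from the cells with no Cd8 to those with 20 or more UMIs: 222, 106, 52.5, 47.5 and 25.2 CPM in the cKO library, and 197, 83.9, 55.2, 40.4 and 29.6 CPM in the WT library.

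The antiapoptotic gene Bcl2 was lower in blasts than in cycling cells without Cd8 but did not follow the amount of Cd8 among the blasts. It was 117 CPM in cKO and 85.6 CPM in WT cells without Cd8, and 27.3, 39.9 and 27.3 CPM in the 3 cKO bands of blasts and 30.03, 28.8 and 26.2 CPM in the WT bands. Bcl2l1, which encodes BCL-XL and keeps DP thymocytes alive, was 11.3 CPM in cKO and 13.0 CPM in WT cells without Cd8, and 59.9 CPM in cKO and 54.3 CPM in WT blasts of the highest band. Both were picked from a list of apoptosis regulators in which, against cycling cells without Cd8, 3 of 19 measured members were at least 1.5-fold higher and 1 lower in blasts of both libraries, beside 0.835% and 3.37% of all genes. Notch1, the receptor that drives T lineage commitment, was 183 CPM in cKO and 195 CPM in WT cells without Cd8, and 116 CPM in cKO and 141 CPM in WT blasts of the highest band. Cells of that highest band were also the shallowest of the blasts, with medians of 19259 UMIs in the cKO library and 21981 in the WT library, against 32791 in the cKO and 35241 in the WT band of 5 to 19; the part of RNA content per cell in these levels was not tested.

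**Figure D2:**
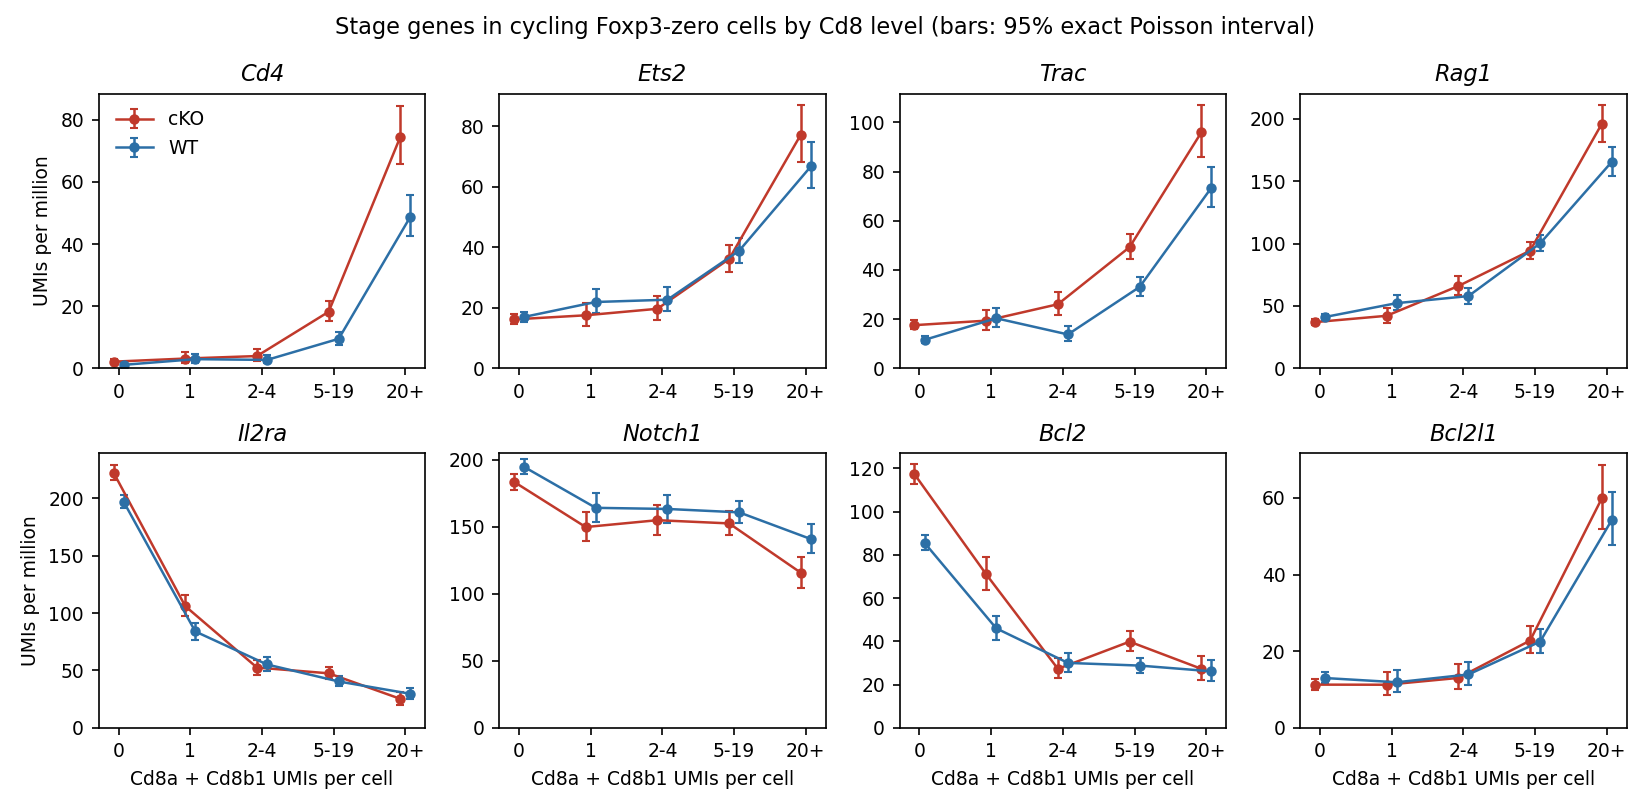
Level of 8 stage genes in CPM, in cycling Foxp3-zero cells grouped by Cd8a plus Cd8b1 UMIs per cell; red is the cKO library, blue the WT library, and bars are exact 95% Poisson intervals. Cd4, Ets2, Trac, Rag1 and Bcl2l1 are highest and Il2ra and Notch1 lowest in the band of 20 or more in both libraries; Cd4 reaches 74.6 CPM in cKO and 48.8 in WT cells there.

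Against cycling cells without Cd8, the blasts had lower levels of many DN genes and higher levels of DP genes. Of 9457 genes with at least 100 UMIs over both groups in each library, 79 (0.835%) were at least 1.5-fold higher in blasts in both libraries and 319 (3.37%) at least 1.5-fold lower; none was past 1.5-fold in opposite directions. In the list of pre-TCR, beta-selection and DN genes 12 of 21 measured members were lower and none higher, with a median log2 difference of -1.06 in the cKO library and -0.99 in the WT library. Il2ra, the CD25 gene used for the beads, was 44.2 CPM in cKO blasts against 222 in cKO cells without Cd8, and 42.4 CPM in WT blasts against 197 in WT cells without Cd8. Cpa3 (carboxypeptidase A3, carried over from early progenitors) was 14.0 CPM in blasts against 118 in cells without Cd8 in the cKO library, and 12.6 against 89.4 CPM in the WT library. Hes1, a direct Notch target, was 32.6 against 100 CPM in the cKO library and 36.9 against 94.7 in the WT library, and the progenitor regulators Kit, Bcl11a, Hhex, Lyl1, Spi1 and Erg were lower as well. Ptcra did not follow them, at 87.0 against 61.4 CPM in the cKO library and 99.6 against 71.8 in the WT library.

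In the list of ISP-to-DP and DP genes 13 of 31 members were higher in blasts in both libraries and 1 was lower, with medians of 0.56 in the cKO library and 0.44 in the WT library. Satb1, a chromatin organiser of DP thymocytes, was 551 CPM in cKO blasts against 205 in cKO cells without Cd8, and 497 in WT blasts against 202 in WT cells without Cd8. Rmnd5a, Endou, Ets2, Cd2, Bcl2l1 and Slc7a11 were also past 1.5-fold in both. The member that was lower is Cd69, an activation marker that marks positive selection later on, at 21.3 against 96.8 CPM in the cKO library and 20.7 against 50.03 in the WT library. The 10 genes with the highest ratios held the tubulins Tubb2a and Tubb2b, the class Ib gene H2-Q2, Phlda1, Arsi and Syt13, and the 10 lowest held Ctla2a, Scin, Serpinb1a, Igfbp4, Trgc1 (a constant segment of the gamma chain), Nkg7, Atp8b4 and Ifitm1. S-phase genes (0 of 45 either way) and MYC and ribosome-biogenesis genes (0 of 29 either way) stayed within 1.5-fold.

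Against resting Cd8-positive cells the difference was far wider, since the rule itself separated the groups by cell division. Of 9082 genes, 1510 (16.6%) were at least 1.5-fold higher in blasts in both libraries and 3304 (36.4%) at least 1.5-fold lower. Beyond the cell cycle, 27 of 28 MYC, ribosome-biogenesis and nucleotide-synthesis genes were higher, with medians of 2.04 in the cKO library and 2.01 in the WT library, as were 11 of 20 genes of glycolysis and nutrient transport. Myc itself was 76.3 CPM in cKO blasts against 23.5 in cKO resting cells, and 85.4 in WT blasts against 26.2 in WT resting cells. In the other direction 18 of 19 genes of proximal TCR and pre-TCR signalling and 28 of 31 ISP-to-DP genes were lower in blasts. Cd4 was 26.2 CPM in cKO blasts against 521 in cKO resting cells, and 16.6 in WT blasts against 506 in WT resting cells. Ccr9, a homing receptor of DP cells, Txk, a kinase of the TCR pathway, and Cd52, Chrna9, Arl5c, Gramd3 and Slc6a19 had the other low ratios. The resting cells were far shallower, as their median UMIs above show. Among the 10 highest ratios were the division genes Pclaf, Nusap1, Birc5, Ccna2, Cdk1, Cdca8, Tpx2, Cenpf, Cdca3 and Ccnb2, as follows from the rule.

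Blasts with a Cd4 UMI at 5000 UMIs per cell had higher levels of DP genes than blasts without one. In 1 thinning draw there were 81 Cd4-positive and 410 Cd4-zero cKO blasts, and 62 Cd4-positive and 523 Cd4-zero WT blasts; of 7973 genes, 335 (4.2%) were at least 1.5-fold higher in the Cd4-positive blasts in both libraries and 92 (1.15%) at least 1.5-fold lower. Over 10 draws the counts ran from 295 to 383 higher and from 32 to 109 lower, so the lower count depends on the draw. With the blasts split by Cd4 at full depth, 180 genes were higher and 3 lower. The ISP-to-DP list had 15 to 18 of 30 members higher over those draws, with medians between 0.66 and 0.84 in the cKO library and between 0.66 and 0.998 in the WT library; Cd4, which made the split, is 1 of them. Ccr9 was 175 CPM in Cd4-positive cKO blasts against 34.9 in Cd4-zero cKO blasts, and 210 CPM in Cd4-positive WT blasts against 41.7 in Cd4-zero WT blasts. Lsp1, Ptms, Slc7a11, Btg1 (an antiproliferative gene), Cd52 and Txk were likewise past 1.5-fold in every draw, and Vim and Epsti1 in 9 of 10.

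The MYC and ribosome-biogenesis list ran lower in the Cd4-positive blasts, with medians from -0.79 to -0.47 in the cKO library and from -0.62 to -0.38 in the WT library over the 10 draws and 4 to 12 of 28 members past 1.5-fold. Srm, which makes spermidine, was 99.2 CPM in Cd4-positive cKO blasts against 214 in Cd4-zero cKO blasts, and 112 CPM in Cd4-positive WT blasts against 244 in Cd4-zero WT blasts. Hspd1, a mitochondrial chaperone, and Gcsh, of the glycine cleavage system, were lower in every draw too, whereas Hbb-bt, Xcl1, Ydjc, Rangrf, Ifrd2, Rrp9 and Shmt1 passed in 5 to 9 of 10; 1 blast held 156 of the 194 Xcl1 UMIs in the cKO library and 1 held 130 of the 372 in the WT library. Cd4-positive blasts held fewer UMIs: their median was 16113 in the cKO library against 32686 in Cd4-zero cKO blasts, and 15060 in the WT library against 34607 in Cd4-zero WT blasts. Cycle phase was set beside this: over the 10 draws more S than G2/M UMIs were found in 40.3 to 50.6% of Cd4-positive and 46.8 to 50.1% of Cd4-zero cKO blasts, and in 29.7 to 41.4% of Cd4-positive and 50 to 52.04% of Cd4-zero WT blasts, ranges that overlap in the cKO library and not in the WT library. Of 47 G2/M genes 1 to 19 were at least 1.5-fold higher in Cd4-positive blasts of both libraries and none lower. The part of depth and cycle phase in the gene levels was not tested.

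Blasts were spread over the cell cycle with similar shares in both libraries. S-phase UMIs were counted over 45 replication genes and G2/M UMIs over 47 mitotic genes, neither list holding the 4 cycle genes of the rule. At 5000 UMIs per cell more S than G2/M UMIs were found in 48.2% of cKO blasts and 49.5% of WT blasts, as means of 5 draws. In cycling cells without Cd8 that share was 60.5% in the cKO library and 62.1% in the WT library in 1 draw, so the blasts of both libraries lay further towards G2/M. The measure is a range with no gap at 50%: 111 of 493 cKO and 155 of 586 WT blasts lay within 10 points of an even split at full depth. No S-phase or G2/M gene was past 1.5-fold between cKO and WT blasts, with median log2 ratios of -0.01 for S-phase and 0.07 for G2/M genes.

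**Figure D3:**
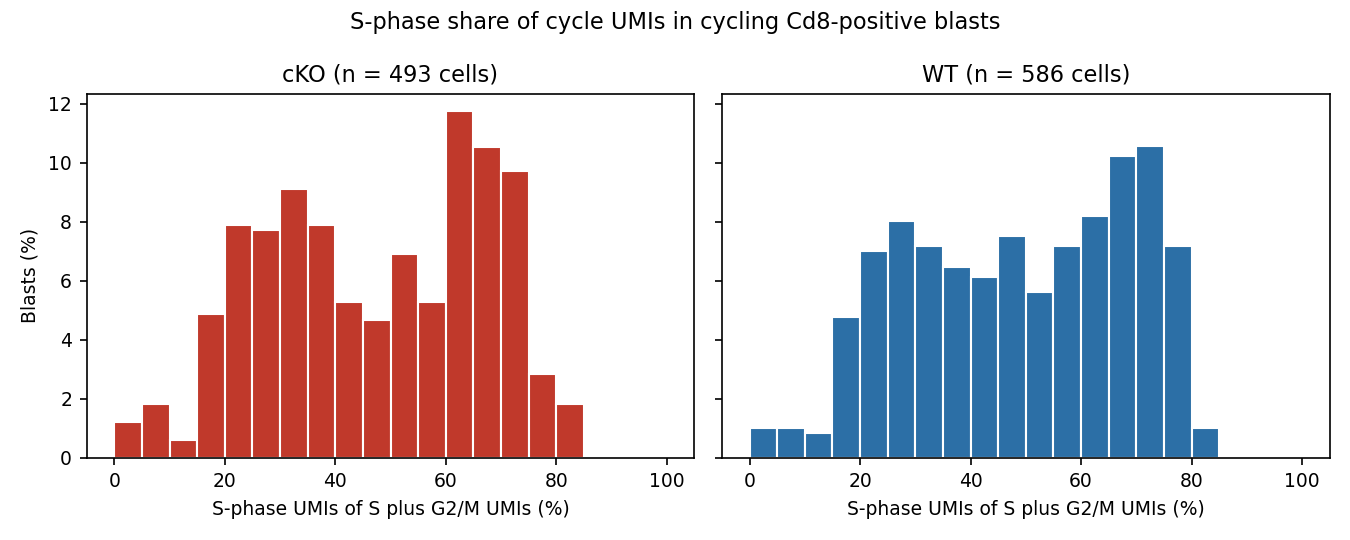
Share of S-phase UMIs among S-phase plus G2/M UMIs of each blast at full depth, in 5-point bins, as a percentage of the library's blasts; cKO on the left, WT on the right. Both libraries have 1 broad mode below and 1 above 50%, and the medians are 48.6% in cKO and 49.9% in WT blasts.

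Between cKO and WT blasts few genes differed by much. Of 9248 genes with at least 100 UMIs over both libraries, 15 were at least 1.5-fold higher and 23 at least 1.5-fold lower in cKO blasts, 0.411% in all, and the median log2 difference was -0.01. With 1 CPM added in place of 5, 40 were higher and 49 lower. The genes higher in cKO blasts were led, after Cd74 and H2-Aa, which come from 2 barcodes described below, by H2-Q7, Ssbp4, Ddit4, Zfp36l2 and Tsc22d3. The genes lower in cKO blasts were led by interferon-stimulated genes. The other 2 groups of cells come from the same 2 libraries, so a like difference there is not a replicate.

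**Figure D4:**
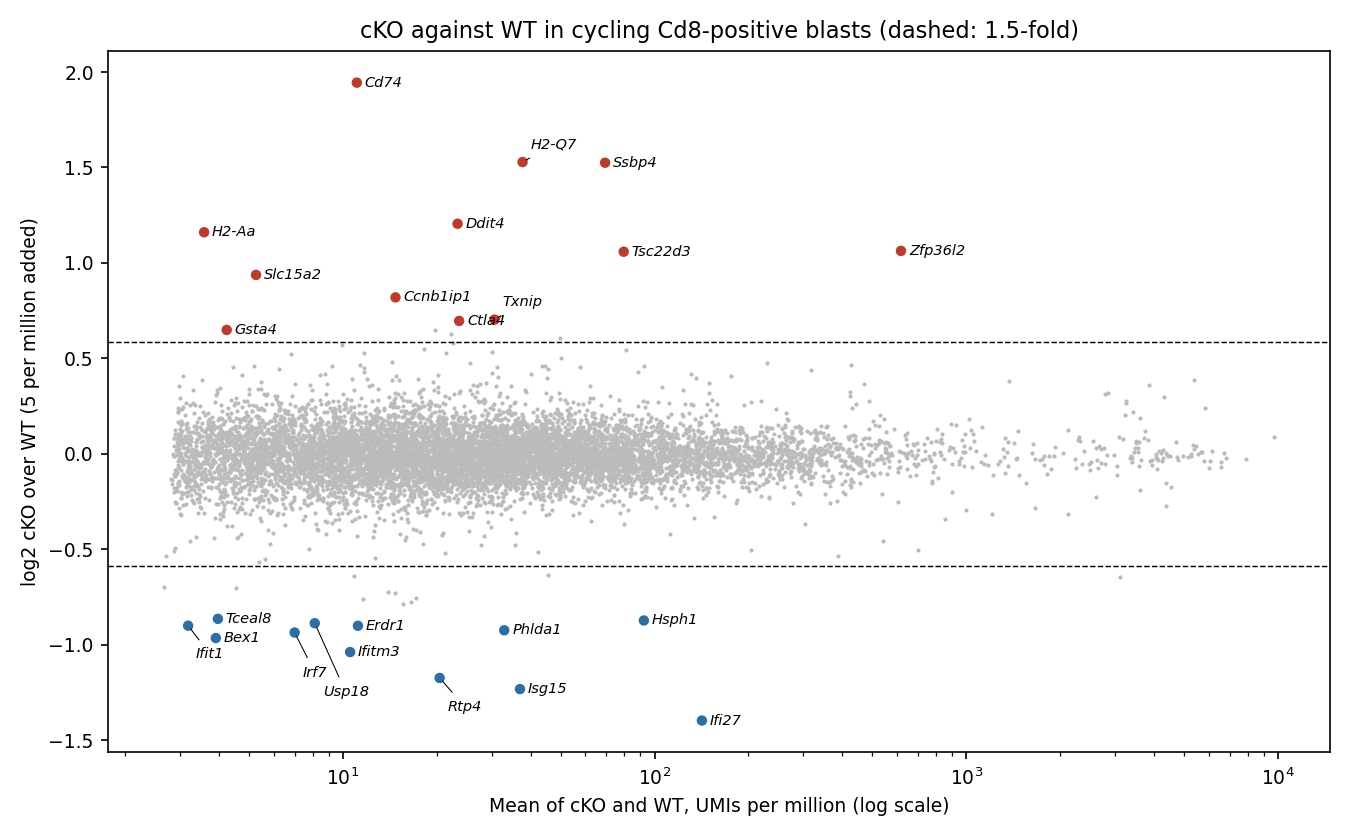
Each grey point is 1 of 9248 genes with at least 100 UMIs in blasts: the mean level of cKO and WT blasts (CPM, log scale) against the log2 ratio of cKO over WT after adding 5 CPM. Red and blue points are the 12 named genes at each end and dashed lines mark 1.5-fold; Ssbp4 lies at 1.52 and Ifi27 at -1.40.

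H2-Q7, a class Ib major histocompatibility gene, had 902 UMIs in cKO blasts and 333 in WT blasts, or 58.4 CPM in cKO and 17.0 CPM in WT blasts, a ratio of 3.44 (3.03 to 3.91). It was found in 48.7% of cKO and 15.5% of WT blasts. In cycling cells without Cd8 it stood at 165 CPM in the cKO library and 60.9 CPM in the WT library. H2-Q7 has close paralogs such as H2-Q6 (60 UMIs in cKO and 39 in WT blasts), so reads may be shared between copies. Other class I genes, looked at after H2-Q7 had been seen, were higher by less: the log2 ratio of cKO over WT was 0.61 for H2-Q4, 0.47 for H2-D1, 0.45 for H2-Q2, 0.26 for H2-K1 and 0.20 for B2m, whereas H2-T23 was at -0.07.

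Ssbp4, of the single-stranded DNA-binding protein family, had 1627 UMIs in cKO blasts and 654 in WT blasts, or 105 CPM in cKO and 33.3 CPM in WT blasts, a ratio of 3.16 (2.88 to 3.46). It was seen in 90.1% of cKO blasts and 61.6% of WT blasts. The ratio was 2.91, 3.37 and 3.07 in the 3 Cd8 bands of blasts, from low to high, and 3.43 in cycling cells without Cd8. In resting cells Ssbp4 stood at 90.3 CPM in the cKO library and 49.9 CPM in the WT library.

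In the glucocorticoid and FOXO response list 6 of 26 measured members were at least 1.5-fold higher in cKO blasts and none lower. Over all 11117 genes with at least 20 UMIs, 0.18% were higher. The list's median log2 ratio was 0.14. This list, like the interferon and heat-shock lists below, was chosen with earlier results of these data known. Its count is a description and no independent evidence. Tsc22d3 (GILZ, a glucocorticoid-induced regulator) stood at 109 CPM in cKO and 49.9 CPM in WT blasts, a ratio of 2.19 (2.03 to 2.37). Ddit4, a stress-induced inhibitor of mTORC1, stood at 34.5 CPM in cKO and 12.1 CPM in WT blasts, a ratio of 2.84 (2.44 to 3.33). Zfp36l2, an RNA-binding protein that limits thymocyte proliferation, stood at 837 CPM in cKO and 398 CPM in WT blasts, a ratio of 2.10 (2.05 to 2.16). Slc15a2 (a peptide transporter), Txnip (a glucose-responsive arrestin) and Klf2 (a FOXO1 target of mature T cells) completed the 6, with ratios of 4.16, 1.77 and 1.71. The glucocorticoid target Fkbp5 was near even, with a log2 ratio of 0.12, as were Il7r at 0.01, Sesn1 at -0.04 and Btg2 at -0.15. In cycling cells without Cd8 the same 6 members were at least 1.5-fold higher in the cKO library, against 0.238% of all genes there. In resting cells 7 members were, against 0.554% of all genes, and 4 of them were among the 6 of the blasts; the log2 ratio there was 0.01 for Txnip and -0.18 for Klf2.

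The other named high genes, beside Cd74, H2-Aa, H2-Q7 and Ssbp4, were Ccnb1ip1, Ctla4 and Gsta4. Ccnb1ip1, a ubiquitin ligase known from meiotic recombination, stood at 20.2 CPM in cKO and 9.28 CPM in WT blasts. Ctla4, an inhibitory receptor, stood at 30.4 CPM in cKO and 16.8 CPM in WT blasts. Gsta4, a glutathione transferase, stood at 6.28 CPM in cKO and 2.19 CPM in WT blasts; 1 cKO blast held 16 of its 97 cKO UMIs, and without the top cell of each library its log2 ratio of 0.65 became 0.53, under 1.5-fold. Ssbp4 and Gsta4 were the 2 of 11 measured members at least 1.5-fold higher in a list chosen beforehand, against 0.18% of all genes. The list holds genes earlier seen higher in Foxp3-expressing cells of this cKO library, so the count is no independent evidence.

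Of the interferon-stimulated genes, 9 of 36 measured were at least 1.5-fold lower in cKO blasts and none higher. Over all 11117 genes with at least 20 UMIs, 0.207% were lower. Of the 36 list members 31 lay below 0, beside 5924 of those 11117 genes. The list's median log2 ratio was -0.32. Ifi27 had 1171 UMIs in cKO blasts and 4076 in WT blasts, or 75.8 CPM in cKO and 208 CPM in WT blasts, a ratio of 0.365 (0.342 to 0.389). Isg15, an interferon-induced ubiquitin-like protein, stood at 20.1 CPM in cKO and 53.9 CPM in WT blasts, a ratio of 0.372 (0.327 to 0.423). Usp18, the enzyme that removes ISG15 from proteins, stood at 4.21 CPM in cKO and 12.03 CPM in WT blasts. Irf7, a transcription factor that amplifies type I interferon, stood at 3.24 CPM in cKO and 10.8 CPM in WT blasts. Rtp4 stood at 10.6 CPM in cKO and 30.2 CPM in WT blasts, and Ifit1, at 0.712 CPM in cKO and 5.66 CPM in WT blasts, was the scarcest of the 9. Xaf1, Trim30a and Irf9 complete them. Ifitm3, an antiviral membrane protein outside the list, stood at 5.18 CPM in cKO and 15.9 CPM in WT blasts; reads of Ifitm paralogs can be shared.

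Per cell, the sum over the 31 list genes outside class I presentation had a median of 520 CPM in cKO blasts (quartiles 366 and 730.1) and 860.2 CPM in WT blasts (quartiles 585 and 1210). In cycling cells without Cd8 the medians were 798 CPM in the cKO library and 1065 CPM in the WT library, and in resting Cd8-positive cells 713 CPM in the cKO library and 825 CPM in the WT library. The list's median log2 ratio was -0.32 in blasts, -0.24 in cycling cells without Cd8 and -0.11 in resting cells. In cycling cells without Cd8 9 of 37 measured members were at least 1.5-fold lower in the cKO library, beside 28 of all 11750 genes. In resting cells 6 of 37 were, beside 34 of all 10829 genes. These differences between groups were not tested. Members that serve antigen presentation lay on the other side of 0 except Psmb8 at -0.02, with Psmb9 at 0.21, Tap1 at 0.21 and H2-D1 at 0.47.

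**Figure D5:**
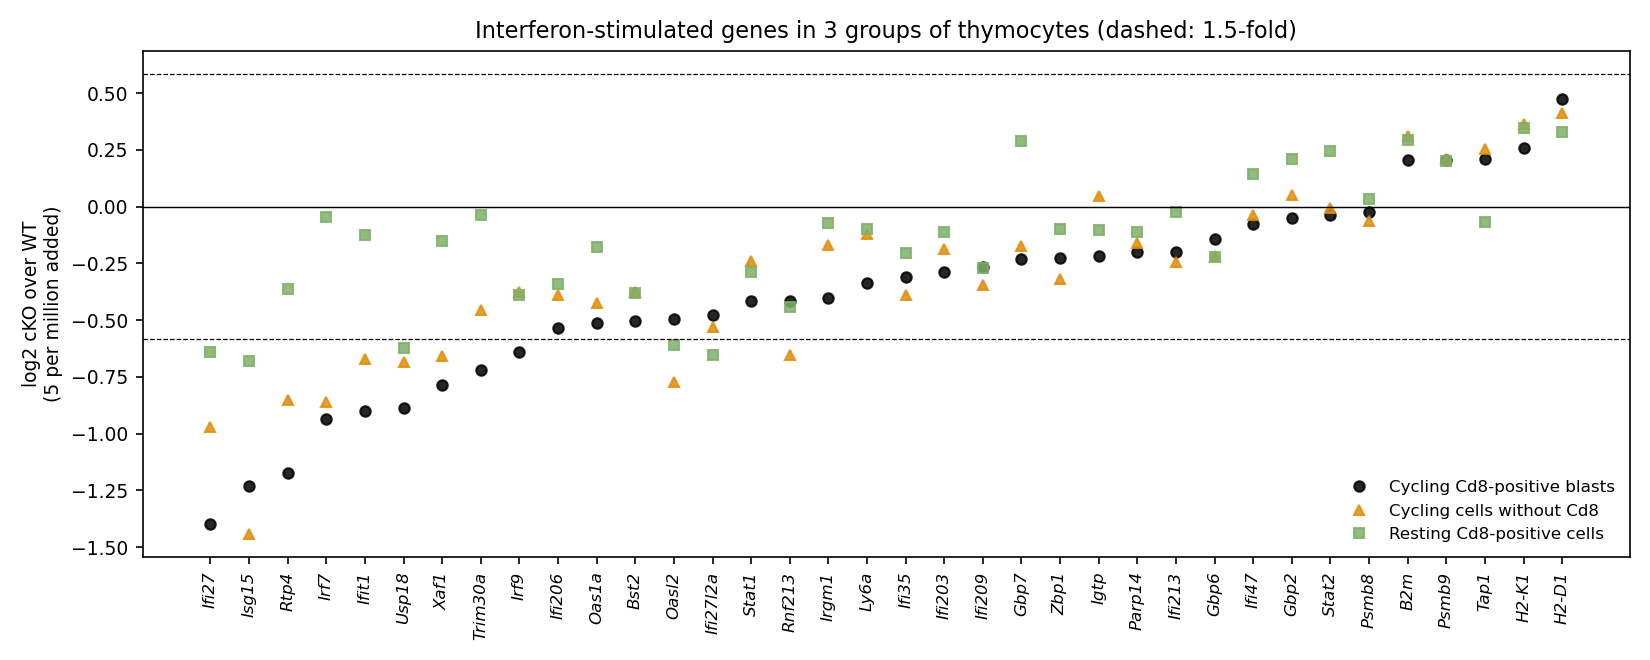
Log2 ratio of cKO over WT (5 CPM added) for the 36 interferon-stimulated genes measured in blasts, ordered by their value in blasts (black circles), with cycling cells without Cd8 (orange triangles) and resting Cd8-positive cells (green squares). In blasts 9 genes lie below the lower dashed 1.5-fold line, from Ifi27 at -1.40 to Irf9 at -0.64, and H2-D1 is at the upper end with 0.47.

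Promoters of members of this list are shown because 9 were at least 1.5-fold lower in cKO blasts and many are bound, when interferon signals, through the interferon-stimulated response element (ISRE). The core GAAANNGAAA was searched on both strands in RefSeq windows of 250 bases before to 50 bases after the gene start (build GRCm38.p6), overlapping matches counted. It was present in 943 of 27025 windows (3.49%, 1 per gene symbol), in 220 of 7473 windows of genes measured in blasts (2.94%) and in 13 of 27 list members with a window (48.1%). Among list members with a window the core was held by 3 of the 6 that were at least 1.5-fold lower in cKO blasts and by 10 of the other 21. Ifi27, Rtp4 and Usp18 were also at least 1.5-fold lower but had no window, so the 2 sets cannot be compared in full. The 150 bases before the start are printed 5′ to 3′ on the gene's strand, with the core in capitals, for 2 genes at least 1.5-fold lower with matches, 1 such gene without any in its window, and 1 list member with a match that was not lower.
Isg15, chr4:156200819-156200968, minus strand: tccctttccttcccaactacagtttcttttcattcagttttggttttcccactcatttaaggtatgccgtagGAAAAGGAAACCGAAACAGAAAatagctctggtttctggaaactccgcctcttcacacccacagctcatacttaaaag
Ifit1, chr19:34640739-34640888, plus strand: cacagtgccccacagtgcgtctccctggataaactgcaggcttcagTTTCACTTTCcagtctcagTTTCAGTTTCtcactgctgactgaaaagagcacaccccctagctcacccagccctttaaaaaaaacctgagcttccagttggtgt
Irf7, chr7:141266425-141266574, minus strand: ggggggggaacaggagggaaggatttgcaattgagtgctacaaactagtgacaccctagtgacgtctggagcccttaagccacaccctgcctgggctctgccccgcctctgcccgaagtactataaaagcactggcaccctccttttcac
B2m, chr2:122147537-122147686, plus strand: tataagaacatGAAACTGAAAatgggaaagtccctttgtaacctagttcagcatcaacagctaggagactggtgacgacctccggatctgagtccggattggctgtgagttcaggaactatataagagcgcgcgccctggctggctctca
In Isg15 the 3 matches overlap and begin 78, 72 and 66 bases before the start; in Ifit1 the 2 matches are on the other strand and begin 104 and 85 bases before it. B2m, with 1 match 139 bases before its start, stood at 568 CPM in cKO and 493 in WT blasts. A match is a string of letters and not a measured binding site.

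Chaperones formed the other group with several lower members. In the dissociation and heat-shock list 3 of 19 measured members were at least 1.5-fold lower in cKO blasts and none higher, against 0.207% of all genes that were lower, with a median log2 ratio of -0.19. Hsph1 (HSP110) stood at 63.8 CPM in cKO and 121 CPM in WT blasts, a ratio of 0.527 (0.489 to 0.568). Hspa1b, an inducible HSP70 with a near-identical neighbour gene, had 13 UMIs in cKO and 88 in WT blasts. Hspa8, the constitutive HSC70, had 37380 UMIs in cKO and 74247 in WT blasts, a ratio of 0.639 (0.631 to 0.647) after scaling. Dnaja1 and Hsp90aa1 had log2 ratios of -0.45 and -0.31. The immediate-early genes of the list were close to 0, with Fos at 0.06, Junb at -0.07 and Egr1 at 0.03. In cycling cells without Cd8 3 of 20 measured members were at least 1.5-fold lower, beside 28 of all 11750 genes. In resting cells 2 of 19 were, beside 34 of all 10829 genes. The log2 ratio of Hsph1 was -0.87 in blasts, -1.07 in cycling cells without Cd8 and -0.65 in resting cells. In the same order it was -0.64, -0.54 and -0.23 for Hspa8, and -0.70, -1.12 and 0.10 for Hspa1b.

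The remaining named low genes were Phlda1, Bex1, Tceal8 and Erdr1. Phlda1, an activation-induced protein with a pleckstrin-homology domain, stood at 21.2 CPM in cKO and 44.7 CPM in WT blasts, a ratio of 0.474 (0.416 to 0.539). In resting cells Phlda1 stood at 34.4 CPM in the cKO library and 79.0 CPM in the WT library. Bex1 had 16 UMIs in cKO and 133 in WT blasts, and Tceal8 had 21 UMIs in cKO and 129 in WT blasts; both are X-linked genes. Erdr1, of the sex chromosomes, had 97 UMIs in cKO and 315 in WT blasts. Mid1, also X-linked, had 178 UMIs in cKO and 449 in WT blasts. Its log2 ratio was -0.76 in blasts, -0.79 in cycling cells without Cd8 and -0.87 in resting cells. Xist had no UMI in the blasts of either library, and Y-linked genes were near even, Ddx3y at 49.9 CPM in cKO and 45.7 CPM in WT blasts.

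In the lists for other programs of the blast stage no member was past 1.5-fold between the libraries. This held among 45 S-phase, 47 G2/M, 16 histone, 21 DN, 31 ISP-to-DP, 15 coreceptor and lineage, 19 proximal signalling, 21 glycolysis, 21 apoptosis, 25 p53, 19 TCR activation and 18 cholesterol genes, against 0.18% of all genes that were higher and 0.207% that were lower, so counts of 0 in lists of this size are near the share over all genes. Among 29 MYC and ribosome-biogenesis genes 26 lay below 0, beside 5924 of all 11117 genes with at least 20 UMIs. The list's median log2 ratio was -0.10, with Nme2 lowest at -0.30. In cycling cells without Cd8 the list's median was -0.10, and in resting cells -0.08. Other lists leaned to 1 side too: 15 of 18 cholesterol genes lay below 0, with a median of -0.12. Of 47 G2/M genes 37 lay above 0, beside 5193 of those 11117 genes. Myc stood at 76.3 CPM in cKO and 85.4 CPM in WT blasts, a ratio of 0.894 (0.829 to 0.964). Of the 21 apoptosis regulators 16 lay above and 5 below 0, with a median log2 ratio of 0.08. Among them the log2 ratio was 0.53 for Fas, a death receptor, 0.41 for the BH3-only genes Bbc3 and Bmf, 0.37 for Bcl2l11 and 0.04 for Mcl1. Il2ra (44.2 CPM in cKO and 42.4 CPM in WT blasts) and Bcl2l1 (27.9 CPM in cKO and 27.3 CPM in WT blasts) had ratio intervals that included 1. Ptcra was slightly lower, at 87.0 CPM in cKO and 99.6 CPM in WT blasts, a ratio of 0.874 (0.815 to 0.937). By share of cells at 5000 UMIs the Ptcra ratio was 0.894, with an interval (0.723 to 1.11) that included 1.

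Of the genes the genotype name could refer to, Setdb1, an H3K9 methyltransferase, had 419 UMIs in cKO blasts and 635 in WT blasts, or 27.1 CPM in cKO and 32.4 CPM in WT blasts, a ratio of 0.838 (0.739 to 0.9495). By Cd8 band, from low to high, the ratio was 0.846 (0.683 to 1.05), 0.911 (0.750 to 1.10) and 0.699 (0.529 to 0.918), and it was 0.917 (0.827 to 1.02) in cycling cells without Cd8. Setdb2 had 92 UMIs in cKO and 118 in WT blasts, a ratio of 0.990 (0.746 to 1.31). Reads come from the 3′ ends of transcripts, and such a tag outside a deleted part checks nothing about the deletion. Among 22 measured genes of H3K9 methylation and the HUSH silencing complex none was past 1.5-fold, which is near the share over all genes (0.411%). Resf1, which regulates SETDB1, stood at 55.2 CPM in cKO and 44.3 CPM in WT blasts, a ratio of 1.25 (1.13 to 1.37). Atf7ip, a SETDB1 partner, stood at 52.6 CPM in cKO and 50.9 CPM in WT blasts, but at 305 CPM in cKO and 188 CPM in WT resting cells.

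Markers of another cell type moved with Cd74 and H2-Aa, both of class II antigen presentation. Cd74 had 317 UMIs in cKO blasts and 32 in WT blasts, and H2-Aa had 106 UMIs in cKO and 6 in WT blasts. In the cKO library 1 barcode held 209 of the Cd74 and 78 of the H2-Aa UMIs, and another held 87 and 24 of them. The first barcode also held 72 UMIs of Fscn1, 63 of Ccl22, 68 of Ccr7 and 40 of H2-M2, genes known from activated dendritic cells, beside 7 UMIs of Cd8a, 6 of Cd8b1 and 5 of Top2a. The second held 3 UMIs of Cd8a, 3 of Ube2c, 1 of Rrm2 and 1 of Mki67. Scrublet called neither a doublet. Without these 2 barcodes Cd74 had 21 UMIs in cKO and 32 in WT blasts, a ratio of 0.835 (0.458 to 1.49), H2-Aa had 4 UMIs in cKO and 6 in WT blasts, and 12 genes in place of 15 were at least 1.5-fold higher in cKO blasts.

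Markers of other types differed in level in blasts. Of 12 B cell markers 4 had no UMI in cKO and 2 in WT blasts, Pax5 among both, and Cd79a had 1 UMI in cKO and 3 in WT blasts. The B cell list's sum of 1131 CPM in cKO and 1056 CPM in WT blasts came mostly from Ly6d and Ighm, which thymocytes also transcribe. Of 15 myeloid and dendritic markers 2 had no UMI in cKO and 1 in WT blasts, and Lyz2 had 23 UMIs in cKO and 16 in WT blasts; their sum was 448 CPM in cKO and 469 CPM in WT blasts, mostly from Plac8 and Cst3. Of 14 stromal and epithelial markers 9 had no UMI in each library, Krt5, Krt8 and Foxn1 among them, with a sum of 52.0 CPM in cKO and 47.1 CPM in WT blasts. Of 9 erythroid and platelet markers 7 had no UMI in cKO and 6 in WT blasts, with a sum of 13.1 CPM in cKO and 14.0 CPM in WT blasts. The 16 gamma-delta and innate-like markers summed to 1094 CPM in cKO and 1244 CPM in WT blasts, led by Gzma, Trdc and the Trgc segments, with Zbtb16 at 1 UMI in cKO and 5 in WT blasts. Of the 12 measured with at least 20 UMIs, 11 lay lower in cKO blasts, beside 5924 of all 11117 genes. The median log2 ratio of these 12 was -0.19 and none was past 1.5-fold. Gzma stood at 552 CPM in cKO and 659 CPM in WT blasts. The part of these transcripts in the differences above was not tested.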

How the data were processed

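The 2 libraries held thymocytes of 1 cKO and 1 WT sample. The deposited matrices are UMI counts for each gene in each barcode, not normalized, made by the authors with Cell Ranger 6.1.1, per the file headers; CASAVA 1.8 and Seurat 4.0.3 are named in the submitters' processing notes, and no source used here names the genome build. Cells were filtered and grouped by the rule in the report (Python 3.11.15, scipy 1.17.1, scanpy 1.11.5 for Scrublet). UMIs were summed per library and group and scaled to CPM; folds are log2 after adding 5 CPM, over genes with at least 100 UMIs (20 for list members), and 1.5-fold was the threshold. With 1 library per genotype no test was possible. The fold calculation was run on simulated summed UMIs with counting error only, so the spread between cells and between libraries was not covered. Shares at 5000 UMIs are the exact average over all thinning draws, phase shares the mean of 5 draws, and the Cd4 split uses 1 draw with the range over 10; this was chosen after seeing that single draws varied. Cells with at least 2 UMIs of Cd79a plus Cd79b were to serve as the background for Cd4, but over 58% of them held Rag1. Cycling cells without Cd8 were set beside the blasts instead, but their lack of Cd8 keeps them from bounding stray Cd4 RNA. Named genes are the 12 highest and 12 lowest folds whose interval excludes 1, the 10 at each end of the other comparisons, up to 4 per list and a fixed set of stage and SETDB genes, leaving out mitochondrial genes, receptor segments, Xist, Y genes and unnamed models; other genes were chosen after their values were seen. Members and lists were chosen with earlier results of these data known. Promoters are RefSeq windows (GRCm38.p6), found for 27 of 36 list members. Some genes of the lists are not reported here.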

Additional observations from a re-analysis of the deposited data

Results flagged for a closer look

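Cd74 and H2-Aa stood higher in cKO than in WT blasts but lower in cKO than in WT cycling cells without Cd8. The log2 ratio of cKO over WT for Cd74 was 1.94 in blasts and -1.02 in cells without Cd8. For H2-Aa it was 1.16 in blasts and -1.45 in cells without Cd8. With 1 library per genotype the difference was not tested. In blasts the cKO UMIs of both genes came mostly from 2 barcodes, without which the log2 ratio was -0.06 for Cd74 and -0.01 for H2-Aa.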

How the results depend on the processing

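No paired analysis was possible because each genotype has 1 library. The 15 genes higher in cKO blasts became 24 with the mean of per-cell CPM and 40 with 1 CPM added, and the 23 lower became 49 with 1 CPM added. Genes higher in blasts than in cycling cells without Cd8 numbered 127 in place of 79 with per-cell means. With Cd4-positive blasts taken at full depth, 180 genes were higher and 3 lower in place of 335 and 92, and the lowest draw had 32 lower. The share of blasts in passing cells, 6.57% in cKO and 8.21% in WT, became 10.9% in cKO and 11.1% in WT among cells of at least 3000 UMIs, 4.79% in cKO and 5.90% in WT with at least 5 Cd8 UMIs, 11.5% in cKO and 13.6% in WT with stricter quality limits, and 3.17% in cKO and 2.80% in WT after thinning to 3000 UMIs; in cKO it was 6.01% with at least 8 cycle-gene UMIs. Its ratio became 0.986 in the deeper cells and 1.13 after thinning. The share with Cd4 at 5000 UMIs became 20.6% in cKO and 15.3% in WT with at least 5 Cd8 UMIs, 35.7% in cKO and 27.3% in WT at full depth, and 10.9% in cKO and 7.65% in WT at 3000 UMIs. For Rag1 these became 44.3% in cKO and 43.1% in WT, 78.1% in cKO and 77.1% in WT, and 28.7% in cKO and 26.9% in WT. Cd74 turned to -0.060 without the 2 Cd74-rich barcodes and -0.045 with at least 8 cycle-gene UMIs, and H2-Aa to -0.013 and -0.016. These runs covered the 27 genes named from the ends of the cKO over WT folds or from the lists. The other 25 of them kept their direction in every alternative run, and 24 to 27 of the 27 stayed past 1.5-fold in each. Folds of genes named only through the fixed set of stage and SETDB genes were not run under these settings. The settings changed which cells or values enter; no other cause was tested.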
